A study of Mus musculus with 2 samples.

Results

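Serpins are a superfamily of proteins that share one fold, and most of them inhibit proteases. Here they are the 63 genes, of 24421 in the deposited tables, whose symbol is Serpin followed by a clade letter from a to i and a digit. They were chosen by name and not by any measured value. Liver RNA was compared between 1 library from RORα f/f mice, in which Rora carries floxed alleles and no Cre is named, and 1 library from mice labelled RORα f/f:Alb-Cre, a liver-specific knockout (LKO). In the latter, Cre under the albumin promoter acts in hepatocytes, so other liver cells keep intact Rora alleles. All mice were C57BL/6 males fed a high-fat diet (HFD) for 12 weeks from 6 weeks of age, so both groups share the floxed alleles and the diet, and no group on another diet was analysed here. The title of the series names the genes that RORα, a nuclear receptor, alters in the progression to steatohepatitis. How many mice each library represents is not stated in the labels.

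A serpin works as bait. Its reactive centre loop is cut by the target protease, the loop then inserts into the body of the serpin, and the protease stays trapped in a covalent complex. The liver secretes most serpins of blood plasma, among them antitrypsin, antithrombin and C1 inhibitor, which restrain neutrophil proteases, clotting and complement. Some members have no inhibitory role and instead carry hormones or help collagen fold. In mice the single human genes for antitrypsin and antichymotrypsin correspond to clusters of copies, named Serpina1a to Serpina1f and Serpina3a to Serpina3n.

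The loop is the part that meets the protease, so it is shown for the expressed Serpina1 copies. Each line holds 66 bases of coding sequence from GENCODE M21 (mm10), 5′ to 3′, which start at the codons of the conserved hinge of the loop. Capitals mark bases that differ from Serpina1a.
Serpina1a: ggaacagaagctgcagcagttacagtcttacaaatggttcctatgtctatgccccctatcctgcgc
Serpina1b: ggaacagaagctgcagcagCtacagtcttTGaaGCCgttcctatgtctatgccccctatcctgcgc
Serpina1c: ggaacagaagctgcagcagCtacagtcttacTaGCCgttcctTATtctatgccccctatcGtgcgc
Serpina1d: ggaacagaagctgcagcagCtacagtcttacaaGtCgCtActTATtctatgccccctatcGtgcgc
Serpina1e: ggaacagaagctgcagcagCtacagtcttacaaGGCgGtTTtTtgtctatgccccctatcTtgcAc

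These stretches lie on the minus strand of chromosome 12, each within 1 exon. That of Serpina1a is at chr12:103853765-103853830 and that of Serpina1e at chr12:103947108-103947173. The closest pair, Serpina1c and Serpina1d, differed at 4 of the 66 bases, and Serpina1e differed from the other copies at 8 to 10. Over the whole coding sequence the 5 copies were 91.4% (Serpina1a and Serpina1e) to 96.7% (Serpina1c and Serpina1d) identical, with gaps counted as differences. The annotated coding sequence of Serpina1a is longer, 1308 bases against 1239 for each other copy, which lowers the value of every pair with it. Pairs without Serpina1a were 96.3% to 96.7% identical. Of all windows of 50 bases in the coding sequence, the share also present in another copy was 39.0% for Serpina1e, 44.7% for Serpina1b, 51.0% for Serpina1d, 70.5% for Serpina1a and 74.7% for Serpina1c. A read from such a window fits more than 1 copy, and the labels do not state how the authors counted such reads.

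The loops of the Serpina3 copies differ more. The same 66 bases are shown for the copies with the highest counts and for Serpina3j, all on the plus strand of chromosome 12, with capitals for bases that differ from Serpina3k.
Serpina3j: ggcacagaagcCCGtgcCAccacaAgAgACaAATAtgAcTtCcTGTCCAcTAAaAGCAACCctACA
Serpina3k: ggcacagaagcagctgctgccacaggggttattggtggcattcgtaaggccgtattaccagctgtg
Serpina3m: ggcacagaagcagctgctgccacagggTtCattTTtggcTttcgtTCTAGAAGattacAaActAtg
Serpina3n: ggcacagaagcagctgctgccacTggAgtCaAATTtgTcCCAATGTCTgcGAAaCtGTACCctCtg

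Those of Serpina3k and Serpina3j lie at chr12:104345269-104345334 and chr12:104319686-104319751. Serpina3m differed from Serpina3k at 16 of these bases, Serpina3n at 27 and Serpina3j at 35. The coding sequences of Serpina3k and Serpina3m were 91.1% identical, and those of Serpina3k and Serpina3j 77.0%. Windows of 50 bases shared with another copy made up 5.04% of the coding sequence of Serpina3j, 10.9% of that of Serpina3n, 21.4% of that of Serpina3k and 24.6% of that of Serpina3m.

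The library totals were 128201591 counts for the control and 131843686 for the LKO-labelled library. Levels are counts scaled to library size (CPM) with TMM normalization factors, and a ratio is the level in the LKO-labelled library over that in the control. With 1 library per genotype there is no replicate spread and no test, and each interval is an exact 95% Clopper-Pearson interval that covers counting error only. A gene counted as measured if its mean reached 1 CPM and its summed count 20. It was called higher or lower if the ratio reached 2-fold and its interval excluded 1. Under total-count scaling all log2 ratios would be larger by 0.42, and the median over all measured genes would be 0.42 in place of −0.0032, so values under that scaling are to be read against 0.42. Rora itself had 3701 and 3677 counts, or 33.4 and 24.1 CPM; its log2 ratio was −0.47, or −0.050 under total-count scaling. The total of the targeted gene was thus not lost, and directions are given for the LKO-labelled library. In bulk liver, fewer cells of a type and less RNA per cell cannot be told apart. The hepatocyte markers Alb, Ttr, Cps1 and Apoa1 summed to 130994 CPM in control and 101373 CPM in the LKO-labelled library, with 0 of 4 called.

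Of the 63 serpins, 27 were measured, 16 had counts below the filter and 20 had 0 counts in both libraries. Their summed counts made up 7.89% of the control library and 5.56% of the LKO-labelled library. Among the 27 measured serpins, 4 were called lower, beside 2.62% of the 11137 measured genes, and 1 was called higher, beside 3.83%. The 4 lower genes were Serpina1e, Serpina3j, Serpina3k and Serpine2, and the higher gene was Serpina7. The ratio was below 1 for 19 of the 27 and above 1 for 8, beside 49.7% of all measured genes with a ratio above 1. The median log2 ratio was −0.36, against −0.0032 over all measured genes. The 4 measured hepatocyte markers had a median log2 ratio of −0.35, and all 4 had a ratio below 1 under TMM scaling. The shift of 0.42 under total-count scaling takes Alb, Ttr and Apoa1 above 1, but not Cps1. With total-count scaling the median of the 27 was 0.058, against 0.42 over all measured genes, and 7 of the 27 ratios crossed from below 1 to above it. At a threshold of 1.5-fold, 9 were lower, beside 9.76% of measured genes, and 2 were higher, beside 10.5%. Serpina3j passed the filter only through the control library, so it had to differ, while the other 26 had at least 1 CPM in both.

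**Figure D1:**
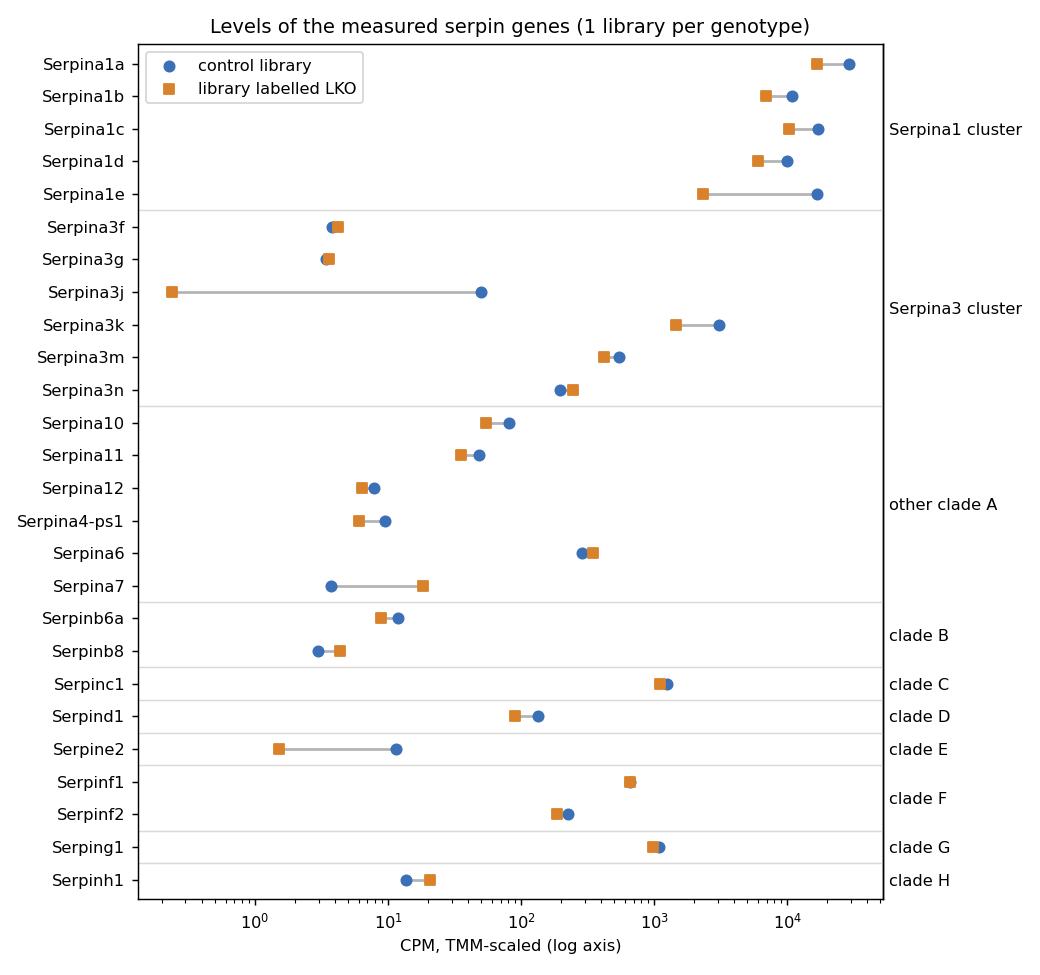
Levels of 26 measured serpin genes in CPM (log axis), control library as blue circles and LKO-labelled library as orange squares, grouped by clade. Levels span from 29122 CPM for Serpina1a to 0.236 CPM for Serpina3j, and the longest lines join the points of Serpina3j, Serpine2, Serpina1e and Serpina7.

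Levels between genes were compared as CPM per kilobase of coding sequence. This assumes that reads spread along the whole transcript, which was not checked, and coding length leaves out untranslated bases. In the control library the 5 Serpina1 copies took the first 5 places, from 22264 CPM per kilobase for Serpina1a to 8022 for Serpina1d, with 13466 for Serpina1e. Serpina3k came next at 2457, then antithrombin (Serpinc1) at 898, C1 inhibitor (Serping1) at 715 and Serpinf1 at 527. In the LKO-labelled library the first 5 places were again the Serpina1 copies, with Serpina1e at place 5 with 1893 CPM per kilobase. Serpina7 stood at place 23 in control liver and 18 in the LKO-labelled library. Serpina3j stood at place 16 and at place 26, the last.

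The Serpina1 copies correspond to human antitrypsin, which is known for inhibiting neutrophil elastase. The loops of the copies differ, and which proteases each copy inhibits was not tested. The copies lie on the minus strand of chromosome 12 between 103688044 and 103958975. Serpina1e had 1849406 counts in control liver and 357582 in the LKO-labelled library, or 16684 and 2345 CPM. This was lower by 7.11-fold (interval 7.09 to 7.14); the log2 ratio was −2.83, and −2.41 under total-count scaling. The other expressed copies stood closer together and none of them was called. Serpina1a had 3228153 and 2549233 counts, or 29122 and 16718 CPM (log2 ratio −0.80). Serpina1c had 16932 and 10340 CPM (log2 ratio −0.71), Serpina1d 9939 and 6045 CPM (−0.72) and Serpina1b 10887 and 6967 CPM (−0.64). In linear terms these 4 copies were 1.56-fold (Serpina1b) to 1.74-fold (Serpina1a) lower, in a band far from Serpina1e. With total-count scaling their log2 ratios were −0.38, −0.29, −0.30 and −0.22, all still below 0.

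Summed over the cluster, the 9263051 and 6467655 counts were 1.97-fold (interval 1.97 to 1.97) lower in the LKO-labelled library, just short of the 2-fold threshold. Without Serpina1e the sum was 1.67-fold lower. Serpina1e made up 19.97% of the counts of the cluster in control liver and 5.53% in the LKO-labelled library. The share of Serpina1a went from 34.8% to 39.4% and that of Serpina1c from 20.3% to 24.4%. Serpina1f, whose coding sequence was 53.5% identical to that of Serpina1a, had 0 counts in both libraries, which allows up to 0.0271 CPM in control and 0.0197 CPM in the LKO-labelled library. These limits are 3 counts per library. The gene model of Serpina1b spans Serpina1d on the same strand, a further source of doubt about the split between those copies.

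**Figure D2:**
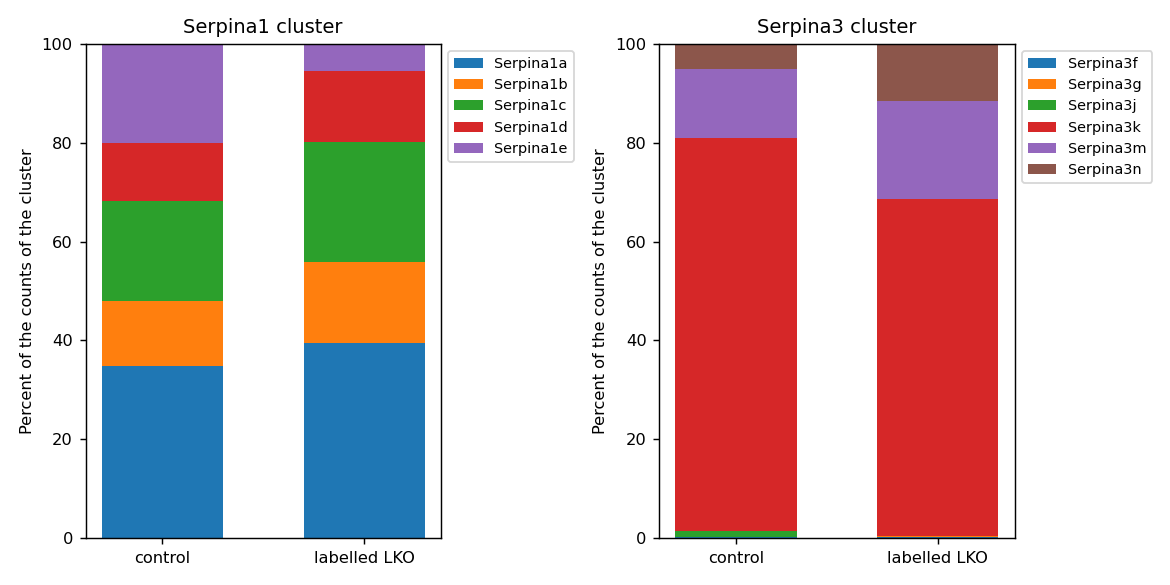
Share of the counts of each cluster held by each gene, in percent, for the control library and the LKO-labelled library; Serpina3 genes under 0.1% in total are left out. The segment of Serpina1e shrinks from 19.97% to 5.53%, and that of Serpina3k from 79.4% to 68.1%.

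The Serpina3 genes are related to human antichymotrypsin, and 11 of them, including the annotated pseudogene Serpina3h, lie among the members at 104112724 to 104414329 on chromosome 12. Serpina3k, known as kallikrein-binding protein, was the main one. It had 341523 counts in control liver and 221428 in the LKO-labelled library, or 3081 and 1452 CPM. It was 2.12-fold (interval 2.11 to 2.13) lower, close to the threshold, and its log2 ratio of −1.09 became −0.67 with total-count scaling and −0.96 with totals that leave out the 20 most abundant genes, where the call was lost in both. Serpina3j had the ratio furthest from 1 among the measured serpins. It had 5545 counts in control liver and 36 in the LKO-labelled library, 50.02 against 0.236 CPM, or 212-fold (interval 153 to 303) lower. Its neighbour Serpina3k, by contrast, held place 6 among the serpins per kilobase in both libraries.

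Serpina3m had 60212 and 64443 counts, or 543 and 423 CPM, with a log2 ratio of −0.36 that turned to 0.058 with total-count scaling. Serpina3n, an acute phase gene known to inhibit granzyme B, went the other way with 21529 and 37694 counts. Its levels were 194 and 247 CPM and its ratio 1.27 (interval 1.25 to 1.29), below the threshold. Serpina3f had 422 and 638 counts and Serpina3g, a cathepsin inhibitor of leukocytes, 380 and 549. Their log2 ratios of 0.14 and 0.07 had intervals that held a ratio of 1. Of the 6 measured Serpina3 genes, 3 had a ratio above 1 and 3 below, with a median log2 ratio of −0.15. The sum over the cluster was 1.82-fold (interval 1.81 to 1.83) lower, and without Serpina3k it was 1.17-fold lower. The annotated gene models of Serpina3k and Serpina3m overlap on 1 strand.

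The other 5 Serpina3 genes were below the filter. Serpina3i had 113 counts in control liver and 37 in the LKO-labelled library, 4.20-fold (interval 2.88 to 6.27) lower. The pseudogene Serpina3h had 94 and 58 counts, Serpina3c 37 and 16, Serpina3a 29 and 10 and Serpina3b 20 and 17. Apart from Serpina3b, whose interval held a ratio of 1, each had a ratio at least 2-fold below 1. None exceeded 1.02 CPM in either library.

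**Figure D3:**
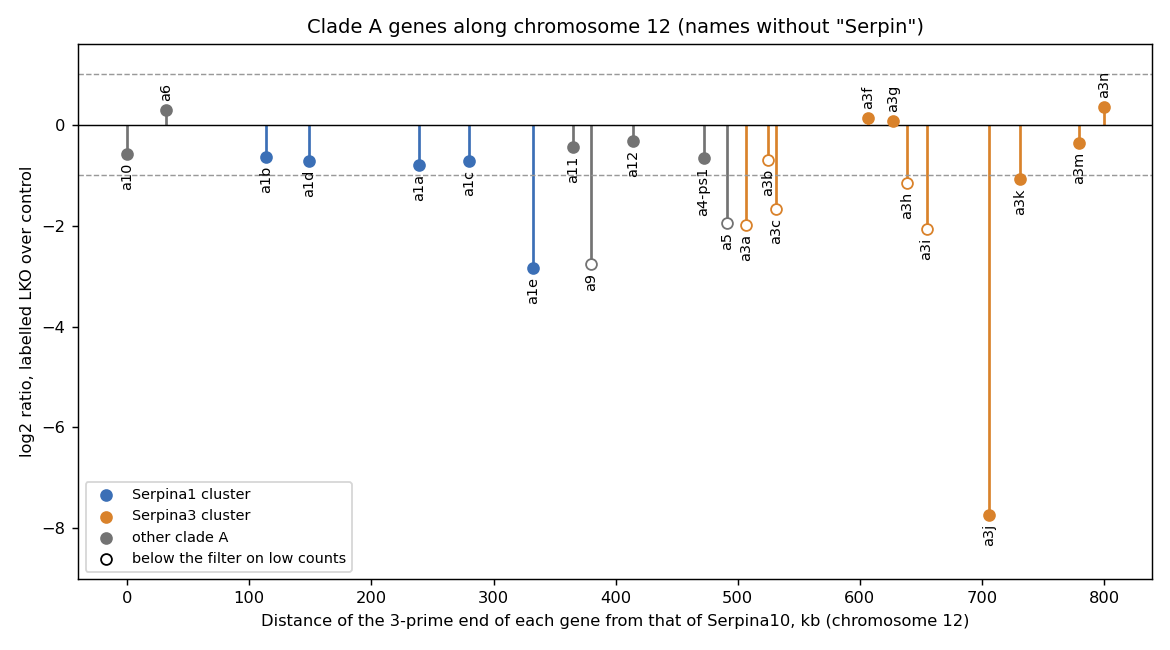
Log2 ratio (LKO-labelled library over control) of the clade A genes with counts on chromosome 12, against the distance of the 3′ end of each gene from that of Serpina10 in kb; filled points were measured, open points were below the filter, and dashed lines mark 2-fold. Serpina1e, at −2.83, stands between uncalled neighbours, while Serpina3j, at −7.73, lies in a run of points below −1 from Serpina3h to Serpina3k. All values use TMM scaling, and Serpina3h and Serpina3k are not below −1 with total-count scaling.

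Along this stretch of chromosome 12 the neighbouring members Serpina3h, Serpina3i, Serpina3j and Serpina3k all had ratios at least 2-fold below 1 under TMM scaling. The first pair of them were below the filter. With total-count scaling Serpina3k (log2 ratio −0.67) and Serpina3h no longer reached 2-fold. Serpina5 and Serpina3a, also neighbours and also below the filter, were 3.88-fold and 3.99-fold lower. The count difference of Serpina5, −20, was within 5% of those of Serpina3a and Serpina3c. Whether reads were counted at more than 1 of these genes was not tested. Serpina1e lay between Serpina1c and Serpina11, neither of them called. Serpina11, next to Serpina1e, had 47.9 and 35.3 CPM (log2 ratio −0.44, and −0.021 under total-count scaling). Serpina9, known as centerin of germinal centre B cells, followed with 59 and 12 counts, 6.76-fold (interval 3.60 to 13.8) lower and below the filter. The 8 markers of T, NK and B cells, all with counts in at least 1 library, summed to 3.37 and 1.76 CPM, and their part in this ratio was not tested. Vaspin (Serpina12) had 872 and 963 counts and a log2 ratio of −0.32, or 0.10 with total-count scaling. The pseudogene Serpina4-ps1 had 1059 and 925 counts and a log2 ratio of −0.66. Protein C inhibitor (Serpina5) had only 31 and 11 counts.

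Both hormone carriers of clade A, which do not inhibit proteases, had ratios above 1. Serpina7 encodes thyroxine-binding globulin and lies on the minus strand of chromosome X from 139079257 to 139085236. It had 416 counts in control liver and 2775 in the LKO-labelled library, or 3.75 and 18.2 CPM. It was 4.85-fold (interval 4.37 to 5.39) higher, the 1 call upward among the measured serpins. Corticosteroid-binding globulin (Serpina6) was the more abundant carrier, with 31681 and 53107 counts, or 286 and 348 CPM. Its ratio of 1.22 (interval 1.20 to 1.24) was below the threshold, and its log2 ratio was 0.29. Serpina6 lies beside Serpina10, and the 2 genes had ratios on opposite sides of 1.

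Serpinc1, Serpind1, Serpina10 and Serpinf2, which restrain clotting or fibrinolysis, had ratios below 1, and none of them was called. Other serpins that act on these proteases, such as Serpine2 and Serpina5, are described apart. Antithrombin (Serpinc1) inhibits thrombin and factor Xa. It had 138877 and 168099 counts, or 1253 and 1102 CPM, and its log2 ratio of −0.18 turned to 0.24 with total-count scaling. Heparin cofactor II (Serpind1), which inhibits thrombin, had 14761 and 13707 counts and was 1.48-fold (interval 1.45 to 1.52) lower. Protein Z-dependent inhibitor (Serpina10), which acts on factor Xa, was alike in size, with 8979 and 8311 counts and 1.49-fold (interval 1.44 to 1.53) lower. Alpha-2-antiplasmin (Serpinf2), the inhibitor of plasmin, had 25130 and 28144 counts and a log2 ratio of −0.30, or 0.12 with total-count scaling. Serpinc1 and Serpind1 overlap Zbtb37 and Pi4ka on the other strand, and the labels do not state whether counting used strand.

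In clade E, Serpine2, or protease nexin-1, inhibits thrombin and plasminogen activators at cell surfaces, and lies on the minus strand of chromosome 1 from 79794197 to 79861180. It had 1272 counts in control liver and 231 in the LKO-labelled library, or 11.5 and 1.51 CPM. It was 7.57-fold (interval 6.58 to 8.75) lower, with a log2 ratio of −2.92, or −2.50 with total-count scaling. Serpine3 had 10 and 4 counts.

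C1 inhibitor (Serping1) controls complement and the contact system. It had 119781 and 149310 counts, or 1081 and 979 CPM, and a log2 ratio of −0.14 that was 0.28 with total-count scaling. Pigment epithelium-derived factor (Serpinf1) is a secreted serpin without known inhibitory action. It had 73086 and 100517 counts and stood at 659 CPM in both libraries, with a ratio of 0.9998 (interval 0.9903 to 1.01). With total-count scaling its log2 ratio was 0.42. Serpinf1 was thus the measured serpin with the ratio closest to 1 under TMM scaling.

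Serpinh1 encodes HSP47, the collagen chaperone of the endoplasmic reticulum. It had 1500 and 3167 counts, or 13.5 and 20.8 CPM, and was 1.53-fold (interval 1.44 to 1.63) higher. This was below the 2-fold threshold, and total-count scaling took its log2 ratio from 0.62 to 1.04, past it. Of 8 markers of stellate cells and fibroblasts, the cells that make most collagen in liver, 7 had a ratio above 1, and the retinol enzyme gene Lrat, a stellate cell marker, had a log2 ratio of −0.18. The 8 genes summed to 196 CPM in control and 285 CPM in the LKO-labelled library, and none was at 0. Dcn, which encodes decorin, made up 158 and 210 CPM of these sums with a log2 ratio of 0.41, and Col1a1, Col1a2 and Col3a1 were called higher. The part of these cells in the ratio of Serpinh1 was not tested.

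Clade B holds intracellular serpins, which protect cells from their own proteases. Of its 27 genes, 18 had 0 counts in both libraries and 2 were measured. Serpinb6a, which inhibits cathepsin G, had 1307 and 1345 counts and a log2 ratio of −0.42, or 0.00 with total-count scaling. Its gene overlaps Nqo2 and Ripk1 on the other strand. Serpinb8 had 328 and 658 counts, or 2.96 and 4.32 CPM, and was 1.46-fold (interval 1.28 to 1.67) higher.

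Serpinb1a, an inhibitor of neutrophil elastase, was below the filter with 22 counts in control liver and 152 in the LKO-labelled library. Its levels were 0.198 and 0.997 CPM and its ratio 5.02 (interval 3.20 to 8.25). Among 5 neutrophil markers with a row, the gene S100a8 was at 0 in both libraries, S100a9 had 4 and 24 counts, Mpo 0 and 4 and the elastase gene Elane 0 and 21. Csf3r, with 651 and 818 counts, made up nearly all of their summed 5.91 and 5.69 CPM. Their part in the ratio of Serpinb1a was not tested. Serpinb9, the inhibitor of granzyme B, had 84 and 136 counts and an interval that held a ratio of 1, as did Serpinb6b with 37 and 71. Serpinb1b, Serpinb1c, Serpinb7 and Serpinb9b had 0 to 6 counts per library. In clade I, neuroserpin (Serpini1) had 21 and 8 counts and Serpini2 had 0 in both.

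**Figure D4:**
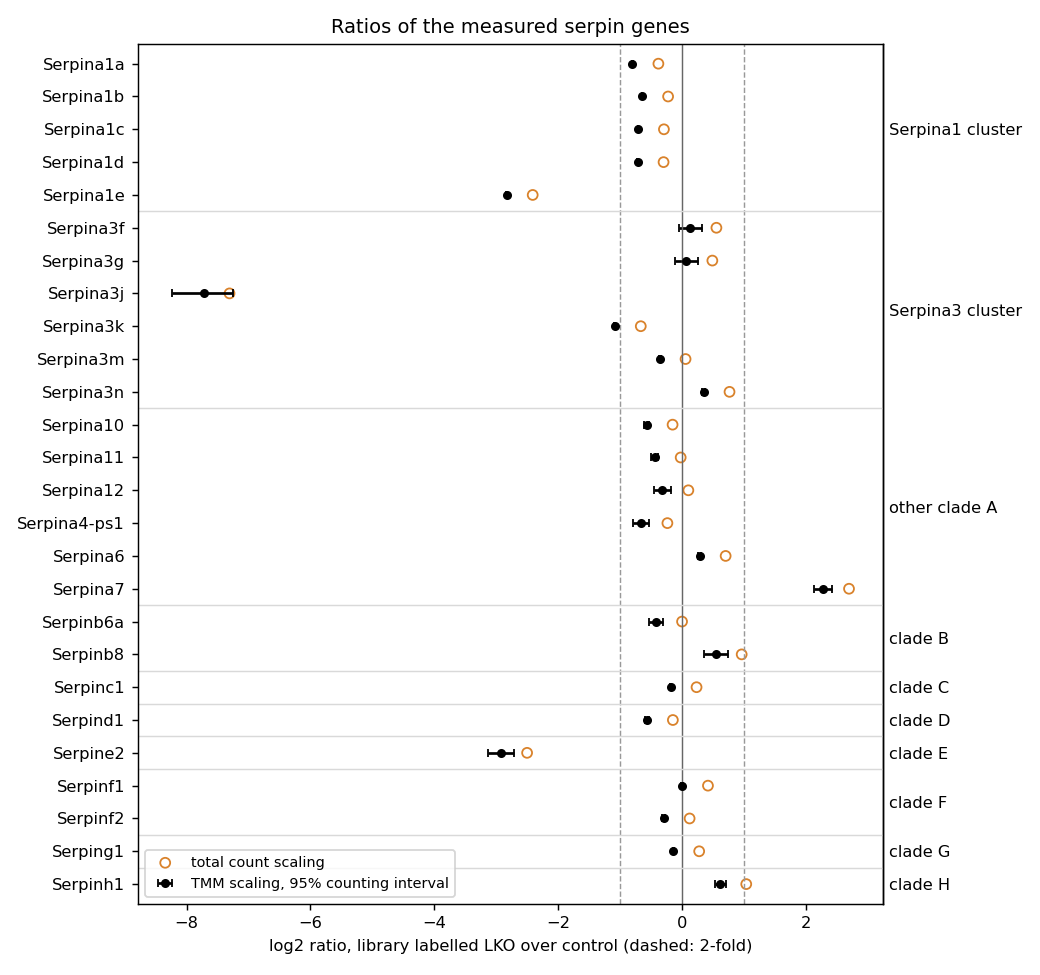
Log2 ratio of 26 measured serpins, LKO-labelled library over control; filled points use TMM scaling with 95% counting intervals, open orange points use total-count scaling, and dashed lines mark 2-fold. Total-count scaling moves every point, and the median of all measured genes, by 0.42. Serpina3j, Serpine2 and Serpina1e lie furthest to the left and Serpina7 furthest to the right under both scalings.

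The genes around the serpins were read from lists of target proteases, of partners and cofactors, and of liver regulators. The last list also holds genes that respond to growth hormone, such as Cish and Socs2. Members of these lists need not each act on or with a serpin. Of 24 target proteases 16 were measured, with a median log2 ratio of −0.17, 0 called higher and 1 called lower, beside 3.83% and 2.62% of all measured genes. That gene was F11, the gene of clotting factor XI, which antithrombin and C1 inhibitor restrain. It had 3167 and 1599 counts and was 2.72-fold (interval 2.56 to 2.90) lower. The most abundant members were Plg, which encodes plasminogen, at 1013 and 934 CPM, and F2, which encodes prothrombin, at 582 and 496 CPM. Their log2 ratios were −0.12 and −0.23, which total-count scaling takes above 0. Of the partners and cofactors 12 of 14 were measured, with a median of 0.10 and 1 call, upward, beside 3.83% of all measured genes. The leptin receptor gene Lepr had 63 and 469 counts and was 5.41-fold (interval 4.15 to 7.16) higher, passing the filter only through the LKO-labelled library. Vtn, which encodes the plasma glycoprotein vitronectin, stood at 1574 and 1020 CPM. Agt, itself a non-inhibitory serpin by sequence under another name, stood at 264 and 262 CPM.

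Of the regulators 20 of 21 were measured, with 4 called higher, 1 called lower (3.83% and 2.62% over all measured genes) and a median log2 ratio of 0.38. Cish and Socs2, which growth hormone induces through STAT5, had 213 and 3243 counts and 462 and 4460 counts. Cish was higher by 11.1-fold (interval 9.63 to 12.8) and Socs2 by 7.02-fold (interval 6.38 to 7.74). Bcl6, a repressor that opposes STAT5 at many liver genes, was lower at 37.2 and 7.21 CPM, or 5.16-fold (interval 4.82 to 5.52). Onecut1 and Foxa2, liver transcription factor genes, were 5.60-fold and 2.05-fold higher. The most abundant members, Igf1 and Ghr, had log2 ratios of −0.57 and −0.35, the latter positive with total-count scaling. Whether these genes bear on the serpin ratios was not tested.

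**Figure D5:**
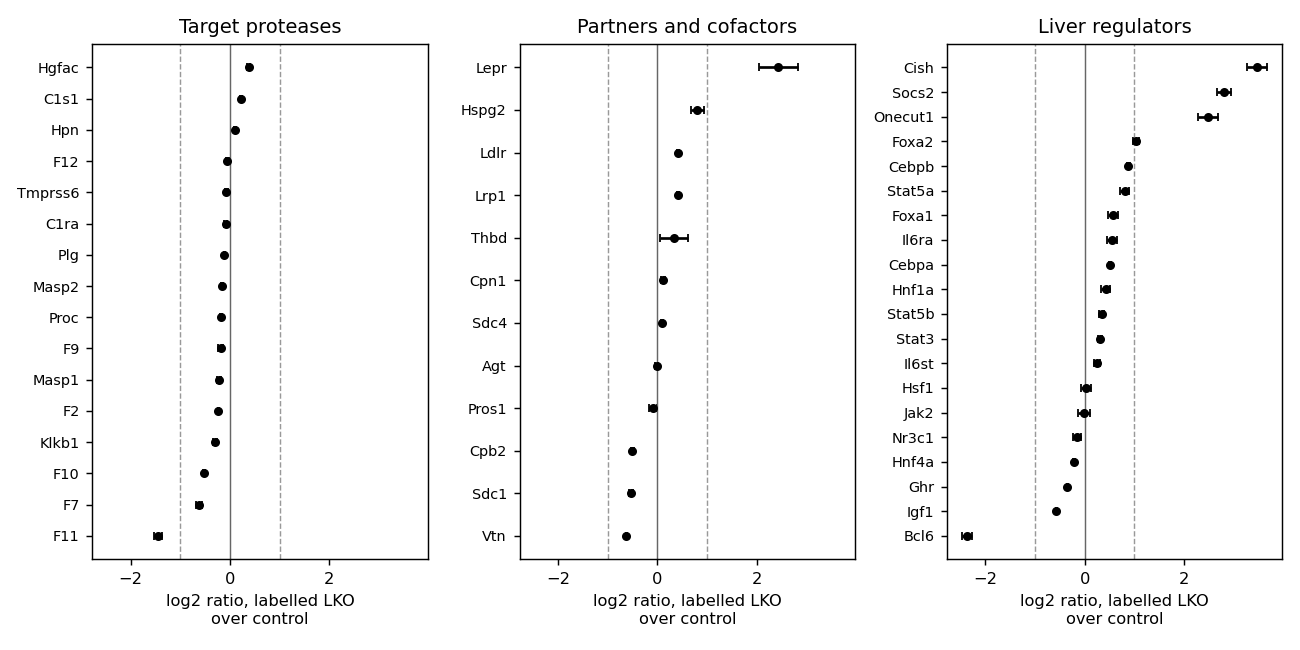
Log2 ratios (LKO-labelled library over control) of the measured target proteases, partners and regulators, with 95% counting intervals and dashed lines at 2-fold. In the list of proteases F11 stands apart at −1.45, and among the regulators Cish, Socs2 and Onecut1 lie above 2 and Bcl6 below −2.

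As Serpina1e had a ratio unlike that of its copies, its upstream sequence was set beside that of Serpina1a. RefSeq promoter windows (GRCm38.p6), from 250 bases before the start site to 50 after it, were found for 20 of the 27 measured serpins, and those without one included Serpina3k, Serpina3m, Serpina4-ps1, Serpina6, Serpina10 and Serping1. The start site of Serpina1e is annotated further downstream, so its window begins at the base that aligns with base 58 of that of Serpina1a. The 193 bases that both windows hold up to the annotated start of Serpina1a are shown, on the minus strand, with capitals where they differ.
Serpina1a: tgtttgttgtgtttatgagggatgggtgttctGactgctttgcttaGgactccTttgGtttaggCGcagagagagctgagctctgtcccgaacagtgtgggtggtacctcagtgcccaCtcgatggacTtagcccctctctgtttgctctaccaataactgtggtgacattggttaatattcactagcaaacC
Serpina1e: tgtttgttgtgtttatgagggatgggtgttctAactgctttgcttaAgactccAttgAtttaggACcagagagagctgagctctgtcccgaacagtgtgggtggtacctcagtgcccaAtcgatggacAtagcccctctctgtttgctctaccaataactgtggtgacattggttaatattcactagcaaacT

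The stretches lie at chr12:103863620-103863812 and chr12:103956955-103957147 and differ at 9 of 193 bases. Most of the marked Serpina1e bases also stand in the window of Serpina1b, a copy that was not called. Most capitals are therefore not particular to Serpina1e. Between Serpina1e and Serpina1b the aligned part of the windows was 97.6% identical over 250 positions. Motifs were searched on both strands of all windows, overlaps allowed. GTTAAT, a half-site of the HNF1 motif, was present in all 5 Serpina1 windows and in 7 of the 20 serpin windows, beside 7.20% of 27025 promoters and 4.52% of the 8384 promoters of measured genes. Aligned parts of the 5 Serpina1 windows were 91.4% to 97.6% identical. Their matches are therefore not independent, and the 7 of 20 cannot be read as enrichment. TTCNNNGAA, the STAT motif, was present in 4 of 20 (Serpina3f, Serpina3g, Serpina11 and Serpinb6a), beside 8.47% of all promoters, and in none of the Serpina1 windows. AGGTCA, the nuclear receptor half-site, was also present in 4 of 20 (Serpina11, Serpind1, Serpinf1 and Serpinf2), beside 16.0% of all promoters. GAANNTTC, a core of heat shock elements, was present in 0 of 20, beside 7.95%. A match describes letters in these windows and not a bound site.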

How the data were processed

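RNA-seq of liver was deposited as 1 table per library. Libraries were made from 500 ng of RNA with a LEXOGEN kit, per the labels' protocols. The authors deposited raw whole-number counts for each gene symbol. The tools named are TopHat and edgeR, and the build is mm10, per the submitters' processing notes. The labels do not state their roles and versions, the counter, the annotation, the use of strand or the treatment of reads with several alignments.

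From these counts, TMM factors were computed with edgeR 4.0.16 in R 4.3.3 (0.865 for control, 1.16 for LKO), and exact intervals with scipy 1.17.1, conditional on the summed count of both libraries. Because PCR copies cannot be told from separate molecules here, intervals and limits describe counting error alone. For a ratio, a gene at 0 was given 3 counts. No count test was run, since a group of 1 library has no residual spread. The procedure was tested on simulated counts.

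Of the 27 measured serpins 26 are named, and 1 is counted in the totals but not reported here. Of the other lists, called members and the 2 most abundant are named, and single cell type markers were added after their values were seen. Members and lists were chosen with earlier results of these data known. Of the measured serpins, 26 of 27 had no neighbour within 250 kb with a count difference within 5% of their own. All 63 symbols matched GENCODE M21. Coding sequences were compared with biopython 1.88. Other cell type marker lists (Kupffer cell, recruited macrophage, endothelial, cholangiocyte, platelet) had ratios of summed CPM from 0.526 (Kupffer cell) to 1.70 (platelet). The platelet ratio rests on sums of only 0.785 and 1.33 CPM, with 0 of 4 markers measured, against 66.2 and 34.8 CPM for Kupffer cells. Alternatives were other scalings (DESeq2 1.42.0 among them), filters, thresholds, intervals and added counts.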

Additional observations from a re-analysis of the deposited data

How the results depend on the processing

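Each result rests on 1 library per genotype, so no replicate could be left out, and no alternative measures the spread between mice. No paired analysis was possible because each group has 1 library. Median-of-ratios scaling, added counts of 0.5 or 5 and a 99% interval changed none of the counts of called genes and no serpin log2 ratio beyond its interval where they were recomputed. No serpin called at 2-fold changed direction under any alternative. With total-count scaling 2 serpins were higher (Serpina7 and Serpinh1) and 3 lower (Serpina3k was lost), the median log2 ratio of measured serpins was 0.058 (0.42 over all measured genes), the summed ratios of the Serpina1 and Serpina3 clusters were 0.679 and 0.735 (0.508 and 0.549 with TMM), and 2 partner genes were called. Upper quartile scaling gave cluster ratios of 0.503 and 0.544. Totals without the 20 most abundant genes gave 0.552 and 0.597, a median of −0.24, 2 serpins higher, 5 lower (Serpina3h and Serpina3i entered and Serpina3k was lost) and 2 proteases called, with 31 serpins past the filter since these totals are smaller. With no filter beyond a summed count of 1, 43 serpins entered, 2 were higher, 11 lower, the median was −0.64 and 5 proteases were called. The share of all genes called was computed only for TMM scaling with the main filter, at 2-fold and 1.5-fold. Counts of called genes under the other settings thus have no such share beside them and are not read as a result about serpins. At a mean CPM of at least 5 or 10 the median was −0.44 or −0.43 and 0 partners were called. At 1.5-fold, 2 serpins were higher (beside 10.5% of measured genes) and 9 lower (beside 9.76%), and 2 proteases and 3 partners were called. At 3-fold 0 proteases were called. With each cluster counted as 1 gene, 1 serpin was lower. Without Serpina1e and Serpina3k the cluster ratios were 0.599 and 0.851. Apart from the alternatives whose construction sets the change (filters, thresholds and genes left out), the cause was not tested. The depth limits only genes of low count, such as those below the filter.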
